A study of Gossypium hirsutum with 9 samples.

Results

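Benzoquinone reductase was followed through 1 array probe, 28K_233_A03, out of 29183 different probes on a cotton cDNA array. It was chosen by its ratio between the lines XinWX and XinFLM: the study took it up as a differentially expressed gene on these same arrays and gave it its name. Its ratio and its level in each line are therefore described below with no test. The mean of both lines on an array does not enter that ratio, and it was tested. XinWX is an upland cotton (Gossypium hirsutum) mutant whose seeds bear neither lint nor fuzz, and XinFLM is a fuzzless line with lint that was isolated from it and differs at a single dominant lint locus. RNA came from field-grown plants at -1, 0 and 1 days post anthesis (DPA). In its PCR figures the study calls samples of these stages ovules or mixtures of ovules and fibers. Its array methods do not name the tissue. Both lines of a stage were hybridized to the same array with different dyes. There were 3 arrays per stage, 9 in all. XinWX carried Cy3 and XinFLM Cy5 on replicates 1 and 3, and the dyes were interchanged on replicate 2. The study's methods speak of 2 biological replicates plus 1 swapped array, whereas the series design calls all 3 replicates biological, so that the spread over 3 arrays may be technical in part.

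Quinone reductases are flavoenzymes that use NADH or NADPH to reduce quinones, such as the benzoquinones, directly to hydroquinones. Because this route bypasses the semiquinone radical, which passes its electron on to oxygen, they are counted among the antioxidant enzymes of plant cells. Lint fibers are single epidermal cells of the ovule that grow out around the day of anthesis, and reactive oxygen species are known to take part in their development.

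The gene behind the probe is best identified by the primer pair that the study designed for it in real-time quantitative PCR. Both primers are shown because the scanner files carry only the probe ID. They are written 5′ to 3′ and nothing in them is marked.
Forward primer: catctgttgaaggtgttg
Reverse primer: atcattccgaatcttgttg
The forward primer has 18 bases, of which 8 are G or C, and the reverse primer has 19 bases, of which 7 are G or C. Neither was placed on a genome here, and the probe was therefore not assigned to a homoeolog of this allotetraploid species. Hybridization can be shared between near-identical copies, so that the signal may sum several genes.

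The probe was spotted once on each array, in block 29, row 20, column 5, and its spot was clearly above the faint limit in both lines on all 9 arrays. The signals given next are the spot median minus the local background, in scanner units, before any normalization. At -1 DPA XinWX gave 2732, 3152.5 and 1654.5 units on replicates 1, 2 and 3, and XinFLM gave 2757, 2960 and 1303 units. The lines were thus close to each other before anthesis, and replicate 3 was dimmer in both. At 0 DPA XinWX gave 2263.5, 1898 and 1706.5 units, against 4652, 4109 and 2815.5 units in XinFLM. At 1 DPA XinWX gave 1112, 860.5 and 2038.5 units, against 5642, 3210.5 and 3086.5 units in XinFLM. On each array of 0 and 1 DPA the XinFLM signal was the brighter one, whichever dye it carried. The lowest signal was 860.5 units, in XinWX on the swapped array of 1 DPA, and a spot was called faint only under 400 units in both channels. The spot median was at least 3.044 times the local background in XinWX and at least 8.466 times in XinFLM.

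**Figure D1:**
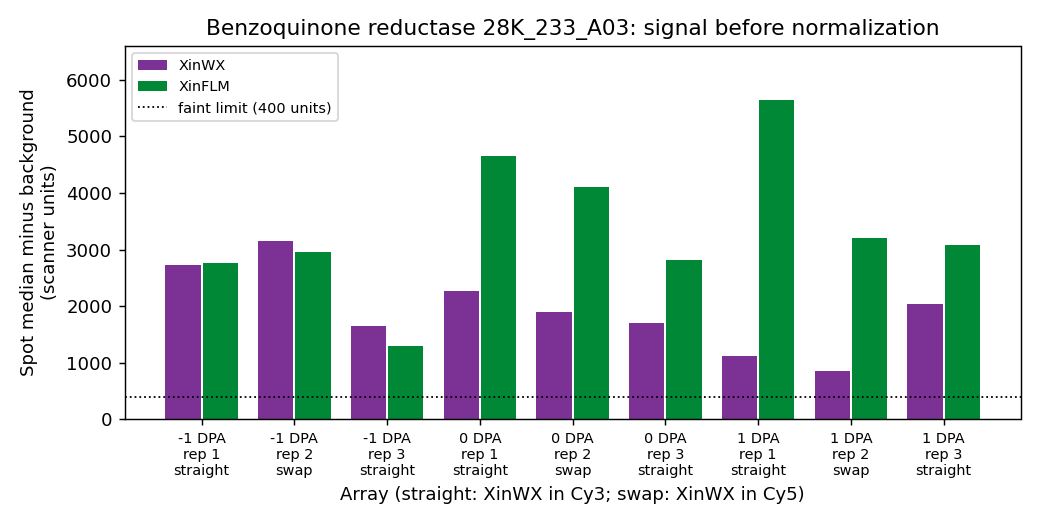
Background-subtracted signal of 28K_233_A03 in scanner units on each of the 9 arrays, with XinWX and XinFLM as bars side by side and the faint limit of 400 units as a dotted line. At -1 DPA the bars are about equal on replicates 1 and 2, and on replicate 3 XinWX is the taller (1654.5 against 1303 units). The XinFLM bar is the taller one on every array of 0 and 1 DPA, from 2815.5 to 5642 units.

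One array stood apart before normalization. On replicate 3 of 1 DPA the median signal over all probes was 1664 units in XinWX and 694 units in XinFLM, a 2.40-fold difference, whereas the lines differed by at most 1.11-fold on the other 8 arrays. The log2 ratio of the probe on that array, XinWX over XinFLM, was -0.60 from the signals alone and -1.60 after loess normalization. On replicates 1 and 2 of 1 DPA normalization moved it little, to -2.21 from -2.34 and to -1.91 from -1.90. Replicates 1 and 2 also resembled each other more than replicate 3. Over the probes of an array, which do not count as replicates, r between the log2 ratios of replicates 1 and 2 was 0.912 at -1 DPA, 0.844 at 0 DPA and 0.800 at 1 DPA. Between replicates 1 and 3 it was 0.651, 0.505 and 0.600. For this probe replicate 3 had the highest log2 ratio of the 3 arrays at every stage. Probes of the same printing block had median log2 ratios from -0.18 to 0.17 on the 9 arrays.

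After normalization the ratio was lower at each later stage. At -1 DPA the log2 ratio of XinWX over XinFLM was -0.04, -0.04 and 0.35 on replicates 1, 2 and 3, with a mean of 0.09 ± 0.23 (SD, n = 3 arrays). The values had both signs, and the 0.35 of replicate 3 set the sign of the mean. Without that array it was -0.04. At 0 DPA the ratio was -0.93, -1.06 and -0.71, with a mean of -0.90 ± 0.18, or 1.87-fold lower in XinWX. At 1 DPA it was -2.21, -1.91 and -1.60, with a mean of -1.91 ± 0.31, or 3.75-fold lower in XinWX. All 3 ratios of 0 DPA lay below those of -1 DPA, as did 17.3% of all probes tested, and all 3 ratios of 1 DPA lay below those of 0 DPA, as did 13.6%. Between neighboring stages the ratio differed by -0.99 (standard error 0.20) from -1 to 0 DPA and by -1.01 (standard error 0.20) from 0 to 1 DPA. The swapped array was almost equal to replicate 1 at -1 DPA, the lowest of the 3 at 0 DPA and between the straight ones at 1 DPA. With a dye term in the fit the ratios were 0.06, -0.92 and -1.93. With the log ratios scaled to a common spread across arrays, the ratios at 0 and 1 DPA were -1.16 and -1.59, and their difference shrank to -0.43. The SD of the log2 ratio over all probes of an array was 0.36 to 0.39 at 0 DPA, 0.43 to 0.58 at -1 DPA and 0.53 to 0.57 at 1 DPA, and scaling equalizes these values.

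The level in each line was taken from the same arrays after their mean intensities had been brought to a common distribution, and it is given in log2 units of normalized intensity. In XinWX the levels on replicates 1, 2 and 3 were 11.06, 11.23 and 11.02 at -1 DPA, 11.03, 10.89 and 10.89 at 0 DPA, and 10.60, 10.23 and 10.55 at 1 DPA. The levels of -1 and 0 DPA overlapped, with the mean 0.17 lower at 0 DPA (0.10 without replicate 2 of -1 DPA), and those of 1 DPA lay below both, by 0.48 in the mean against 0 DPA (1.39-fold). Among all probes 9.32% were lower in XinWX at 1 than at 0 DPA without overlap. From -1 to 1 DPA the mean of XinWX was 0.64 lower (1.56-fold, standard error 0.26), and 12.4% of 21229 probes had a change as low or lower.

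In XinFLM the level went the other way, and by more as normalized here. It was 11.10, 11.28 and 10.67 on replicates 1, 2 and 3 at -1 DPA, 11.97, 11.95 and 11.59 at 0 DPA, and 12.81, 12.14 and 12.14 at 1 DPA. Each later stage was higher than the one before with no overlap. Of all probes, 13.1% were likewise higher in XinFLM without overlap from -1 to 0 DPA, and 11% from 0 to 1 DPA. The mean of XinFLM was 0.82 higher at 0 than at -1 DPA (1.77-fold) and 0.53 higher at 1 than at 0 DPA (1.44-fold). The last step was 0.31 without replicate 1 of 1 DPA, the highest array. Over the whole interval the mean was 1.35 higher (2.55-fold, standard error 0.26), a change that 2.78% of 21229 probes equaled or exceeded.

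Of the change in the log2 ratio from -1 to 0 DPA, 16.8% lay in the XinWX level and 83.2% in the XinFLM level. Without replicate 2 of -1 DPA the XinWX share was smaller, with level changes of -0.10 in XinWX and 0.95 in XinFLM. From 0 to 1 DPA the shares were 47.4% in XinWX and 52.6% in XinFLM, and single arrays decided which line held the larger one. Without replicate 1 of 1 DPA the level differed by -0.55 in XinWX and 0.31 in XinFLM, and without replicate 2 of 1 DPA by -0.36 in XinWX and 0.64 in XinFLM. A setting with ratios scaled and levels not normalized across arrays changes both steps. The XinWX level was then 0.87 lower at 1 than at -1 DPA and the XinFLM level 0.77 higher, so that XinWX changed by more. From 0 to 1 DPA the XinFLM level differed by -0.055 in this setting, so that its last step turned in direction.

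**Figure D2:**
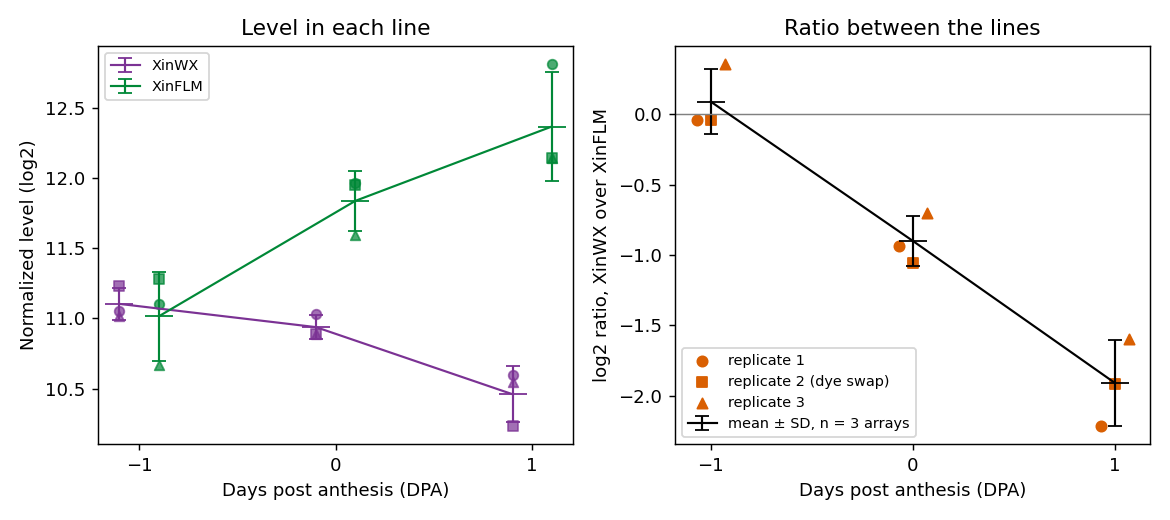
Left, normalized log2 level of 28K_233_A03 in XinWX and XinFLM against days post anthesis, and right, its log2 ratio of XinWX over XinFLM; points are arrays, shaped by replicate, and bars are mean ± SD of 3 arrays. The means of the lines lie close together at -1 DPA, where replicate 3 has a log2 ratio of 0.35. They part afterwards, with a mean ratio of -0.90 at 0 DPA and -1.91 at 1 DPA.

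Ordered by their means, the 6 groups ran from XinWX at 1 DPA (10.46 ± 0.20, SD, n = 3 arrays) over XinWX at 0 DPA (10.94 ± 0.08), XinFLM at -1 DPA (11.02 ± 0.32), XinWX at -1 DPA (11.10 ± 0.11) and XinFLM at 0 DPA (11.84 ± 0.21) to XinFLM at 1 DPA (12.37 ± 0.39). The middle groups, XinWX at -1 and 0 DPA and XinFLM at -1 DPA, overlapped one another. For XinWX the overlap was narrow, with a lowest level of 11.02 at -1 DPA and a highest of 11.03 at 0 DPA. At 0 DPA and at 1 DPA every XinWX level lay below every XinFLM level, as it did for 7.58% and 6.02% of all probes, which describes the contrast that the probe was chosen on. No separation of cell types is described for the samples. A smaller number of cells that hold this transcript and less of it per cell therefore cannot be told apart. In the study's electron micrographs XinWX ovules bore no protrusions at any of these stages. XinFLM ovules bore them at 0 and 1 DPA but not at -1 DPA. The tissue was not checked against a set of marker genes, because gene names beyond those given for 18 probes were not used here. Among these 18, only the lipid transfer protein described below was a planned marker of young fiber and ovule epidermis.

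The mean of both lines, the measure that is separate from the ratio, did not pass the test between any stages. It was 11.08, 11.26 and 10.84 at -1 DPA, 11.50, 11.42 and 11.24 at 0 DPA and 11.71, 11.19 and 11.35 at 1 DPA, and neighboring stages overlapped. From -1 to 0 DPA it differed by 0.33 (95% confidence interval -0.19 to 0.84, adjusted p = 0.843 in limma), from 0 to 1 DPA by 0.03 (-0.49 to 0.54, adjusted p = 0.966) and from -1 to 1 DPA by 0.35 (-0.16 to 0.87, adjusted p = 0.388). The last of these was 0.21 without replicate 1 of 1 DPA. A doubling of the mean level lay outside all 3 intervals. These intervals take the arrays as independent, and they are too narrow if the swapped array is a technical replicate. A probe was called when its adjusted p was under 0.05 and its fold at least 2. The share of all probes called higher at the later stage was 0.126% from -1 to 0 DPA, 0% from 0 to 1 DPA (3514 of 21071 probes had an unadjusted p under 0.05 in either direction) and 1.83% from -1 to 1 DPA. At 1 DPA, compared with -1 DPA, the XinWX level was 0.64 lower and the XinFLM level 1.35 higher, and these opposite courses partly offset each other in this mean.

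Set among all probes kept on at least 2 of 3 arrays of a stage, the benzoquinone reductase probe moved from the middle of the distribution to its XinFLM end. At -1 DPA 60.6% of 23170 probes had a log2 ratio as low or lower, at 0 DPA 1.31% of 22654, and at 1 DPA 0.793% of 22077. The change of its ratio from -1 to 1 DPA, 3.99-fold towards XinFLM (standard error 0.20 in log2), was equaled or exceeded in this direction by 0.594% of 21229 probes, itself included. These ranks describe the values on which the probe was picked. At 0 DPA it stayed short of a 2-fold difference, except with scaled ratios (log2 -1.16), so that as normalized here it was not among the 123 of 20873 probes at least 2-fold lower in XinWX at both 0 and 1 DPA. At least as low at both stages as this probe were 99 others, and 11 of these were also as near to 0 at -1 DPA.

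**Figure D3:**
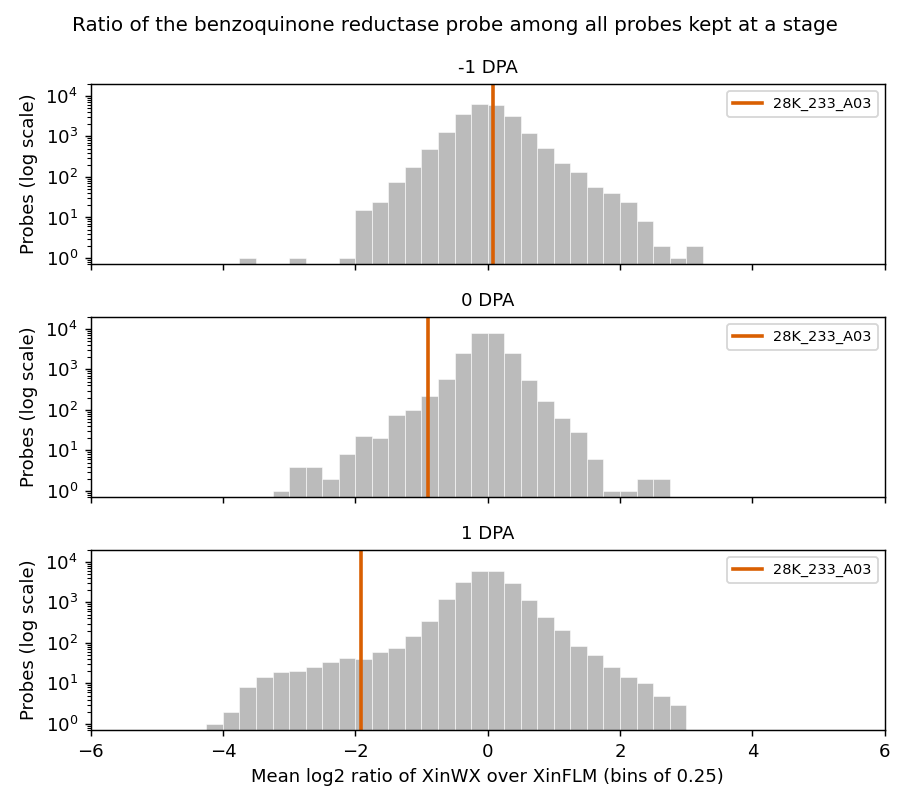
Distribution of the mean log2 ratio of XinWX over XinFLM over all probes kept at -1, 0 and 1 DPA, in bins of 0.25 with the number of probes on a log scale; the vertical line is 28K_233_A03. The line stands in the center at -1 DPA (0.09) and in the XinFLM tail at 1 DPA (-1.91), where 0.793% of probes lie as low or lower.

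Of the 18 probes named in the study, which were picked on these arrays, only the lipid transfer protein probe 28K_179_F11 had a lower ratio at 1 DPA than benzoquinone reductase. Lipid transfer proteins carry lipids to the cell surface and cuticle. At -1, 0 and 1 DPA its mean log2 ratio was -0.54 ± 0.02, -1.43 ± 0.31 and -2.73 ± 0.13 (SD, n = 3 arrays), against 0.09, -0.90 and -1.91 for benzoquinone reductase. The 2 probes shared the downward course, but the lipid transfer protein was already below 0 on all 3 arrays of -1 DPA, where benzoquinone reductase had both signs. At 0 DPA the brassinosteroid co-receptor kinase probe 28K_164_D07 was lower as well, at -1.76 ± 0.44, and at 1 DPA it was back at -0.65 ± 0.57. The other 17 named probes had a median log2 ratio of 0.41, 0.30 and 0.26 at -1, 0 and 1 DPA, and at 1 DPA they ranged from -2.73 to 1.44. The study took some of them as not differing between the lines and others as jasmonate synthesis genes that differed. Rank and median among the named probes depend on this choice. No further gene of quinone reduction or antioxidant defense was analysed here.

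Probes with a similar pattern were sought among the 18149 others kept on all 9 arrays, and those found are given by ID only. Which probes came first depended on the measure. The 18 channel levels are not independent, since the channels of an array were normalized together and all 9 arrays were brought to a common distribution. In these levels 28K_060_A10 and 28K_192_H11 had the highest Pearson correlation (r = 0.963 for each), against a median of -0.0036 over all others, and 29 probes had r over 0.9. The ratios of 28K_060_A10 were -0.38 ± 0.11, -1.23 ± 0.08 and -2.13 ± 0.33 at -1, 0 and 1 DPA, and those of 28K_192_H11 were -0.27 ± 0.34, -1.00 ± 0.16 and -2.13 ± 0.27. By rank correlation 28K_198_B08 and 28K_200_C07 came first instead (rho = 0.957 and 0.955). In the 9 log2 ratios 28K_177_C09 and 28K_068_A12 had the smallest Euclidean distance, 0.53 and 0.64, against a median of 3.83. Their ratios were -0.12 ± 0.19, -0.88 ± 0.19 and -1.74 ± 0.42 for 28K_177_C09, and 0.22 ± 0.22, -0.83 ± 0.04 and -2.04 ± 0.25 for 28K_068_A12. A similar ratio could arise from different courses in the lines. The probe 28K_068_A12 ranked only 162 by Pearson correlation (r = 0.77), and 28K_060_A10 only 45 by distance. For 28K_068_A12 the mean XinWX level was 9.54, 9.49 and 10.01 at -1, 0 and 1 DPA, highest at 1 DPA, whereas for benzoquinone reductase it was 11.10, 10.94 and 10.46, lowest at 1 DPA.

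**Figure D4:**
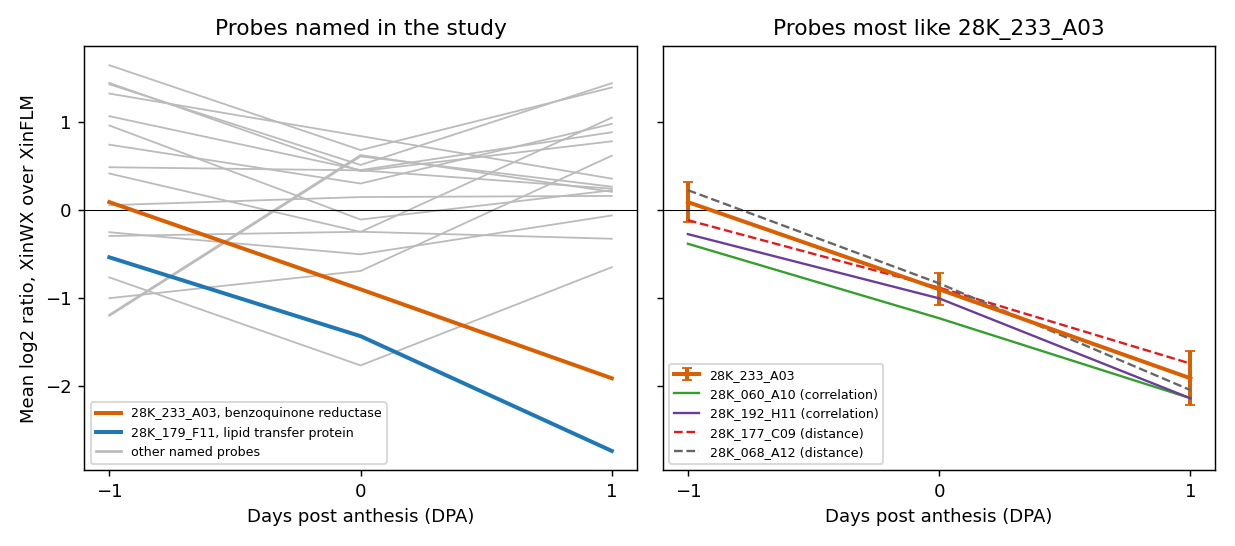
Mean log2 ratio of XinWX over XinFLM against days post anthesis for the 18 probes named in the study (left) and for 28K_233_A03 with the 4 probes ranked first or second by either measure of likeness (right; bars are the SD of 28K_233_A03, n = 3 arrays; solid lines were picked by correlation of levels and dashed lines by distance of ratios). Benzoquinone reductase and the lipid transfer protein are the lowest named probes at 1 DPA, at -1.91 and -2.73, and the 4 like probes end between -1.74 and -2.13.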

How the data were processed

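The deposited scanner files hold spot and background intensities of both dyes, which the authors took from the scanned images with LuxScan and deposited without normalization. The deposited value table holds the authors' within-array normalized log2 ratios of Cy5 over Cy3, made per the submitters' notes with limma 3.4.5 in R 2.12.2, and was used as an alternative. Of 30000 spots per array, 816 were controls or empty. The design did not fix which spot summary to use. All results were first computed from spot means, and spot medians were made the main setting only after results under both had been seen. Log2 ratios from medians correlated better with the authors' table (r = 0.944 to 0.998) than those from means (0.867 to 0.970). Spots under 400 units in both channels were faint, and 20544 to 23884 probes were kept per array. Intensities were corrected by normexp (offset 50) and normalized by loess (span 0.3, 4 iterations; faint and control spots at weight 0), then by Aquantile for levels, with limma 3.58.1, statmod 1.5.0 and R 4.3.3. Faint spots stay in the levels. The mean of both channels was fitted in limma with 1 coefficient per stage over 9 arrays, for probes kept on at least 2 of 3 arrays of both stages, with Benjamini-Hochberg adjustment. Standard errors of line levels come from limma's separate-channel fit (intraspot correlation 0.723), and those of ratios from limma's fit of the ratios. Plots were made in Python 3.11.15 (matplotlib 3.10.9). The number of arrays limits the precision. The probe, the lists and the rule for like probes (the 2 highest correlations and the 2 smallest distances) were chosen with earlier results of these data known. Alternatives covered background, filter, normalization, dye, replicate handling, single arrays and the authors' ratios. The fit takes the arrays as unpaired. In the mean level, same-numbered arrays correlated at 0.0975, 0.162 and 0.414 between -1 and 0 DPA, and under 0.1 between the other stages. In the log2 ratio they correlated at 0.141, 0.261 and 0.129 between -1 and 0 DPA, and under 0.1 between the other stages.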

Additional observations from a re-analysis of the deposited data

How the results depend on the processing

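The direction of the ratio at 0 and 1 DPA and of both line levels from -1 to 1 DPA held in every alternative run for them (23 for the ratio, and 22 for the levels, which the authors' ratios do not give). Leaving out single arrays gave log2 ratios of -0.04 to 0.16 at -1 DPA, -1.00 to -0.82 at 0 DPA and -2.06 (without 1 DPA replicate 3) to -1.75 at 1 DPA. Scaling of the ratios, with levels not normalized across arrays, moved the most values: the log2 ratio to -1.16 at 0 DPA and -1.59 at 1 DPA, its change to -0.43 from 0 to 1 DPA and -1.64 from -1 to 1 DPA, the XinWX change to -0.38 from -1 to 0 DPA and -0.87 from -1 to 1 DPA, and the XinFLM change to -0.055 from 0 to 1 DPA and 0.77 from -1 to 1 DPA. The mean level then changed by -0.27 from 0 to 1 DPA and by -0.046 from -1 to 1 DPA. Its change from 0 to 1 DPA, 0.03 as reported, was -0.12 to 0.14 with single arrays left out (negative without 0 DPA replicate 3 or 1 DPA replicate 1), and that from -1 to 1 DPA was 0.21 (without 1 DPA replicate 1) to 0.47. The cause was not tested. No alternative brought the mean level past the test (adjusted p from 0.269 to 1 in limma). With the replicate block the changes of 0.33, 0.03 and 0.35 had adjusted p-values of 0.774, 0.963 and 0.366. Spot means, the setting used first, and loess within each printing block, an alternative chosen after seeing the data, kept every direction except that of the ratio at -1 DPA with spot means. Spot means gave ratios of -0.01, -0.88 and -1.96 at -1, 0 and 1 DPA. Only 3 arrays per stage limit all values.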
